A study of Homo sapiens with 4 samples.

Results

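The BCL2 family genes described here are 10 genes chosen by name, 3 anti-apoptotic genes (BCL2L1, BCL2 and MCL1), 2 effectors (BAX and BAK1) and 5 BH3-only genes (BID, BAD, BBC3, PMAIP1 and BCL2L11). They were found by gene name, each matched 1 of the 58735 genes listed, and all 10 were among the 12029 genes kept, those whose FPKM (fragments counted per kilobase, relative to a size set for each library) averaged 1 or more over the 4 libraries. RNA was sequenced from 769-P cells, an established line derived from a clear cell carcinoma of the human kidney. The doxycycline group has 2 libraries from cells given doxycycline at 1 µg/ml for 4 days, and the control group has 2 libraries from untreated cells. All 4 libraries came from cells that carry a stably transfected, inducible shRNA construct against USP35, a ubiquitin-specific protease, and that were kept in puromycin. Their background is otherwise given as wild type, although the line derives from a carcinoma. A library given doxycycline without the hairpin was not analysed here, so the drug and the hairpin cannot be told apart. The labels do not say whether the line is a clone or a pool, or whether replicates were separate cultures, so the spread behind each p-value is that between libraries and may be technical.

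Proteins of the BCL2 family decide whether the outer mitochondrial membrane stays intact. The effectors form pores in that membrane that release cytochrome c and start the caspase cascade. The anti-apoptotic proteins hold the effectors in check, and BH3-only proteins, named for the single homology domain they share with the rest of the family, either bind and neutralise the anti-apoptotic proteins or activate the effectors. Clear cell carcinoma cells, like other epithelial tumour cells, commonly depend on BCL-XL (the main product of BCL2L1) and MCL-1 for survival. The tables hold 1 value a gene, so splice forms with opposing activities, such as the long and short products of BCL2L1 and of MCL1, are summed.

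The libraries held 17481827 and 18764546 reads with doxycycline and 16319640 and 17244546 reads in the controls, recovered from the FPKM steps. USP35, the gene the hairpin targets, stood at 2.11 and 2.54 FPKM with doxycycline and at 3.31 and 4.19 FPKM in the controls, a ratio of 0.62 (limma adjusted p = 0.256). The hairpin target was thus lower in both doxycycline libraries, but not past the threshold with all 4. With 1 library left out, its adjusted p ranged from 0.0469 (without doxycycline replicate 2, a fit that called 13.8% of all genes) to 0.962. The share of reads from the mitochondrial genome was 7.44% in doxycycline replicate 1 and 14.6% in replicate 2, against 8.21% and 8.50% in the controls. Of 9 renal clear cell carcinoma markers, 7 were kept and 0 passed. In each doxycycline library 1 (PAX2) was above both controls, as were 24.3% of all genes kept. Below both controls were 3 (VIM, KRT8 and KRT18), as were 28.9% of all genes kept. KRT18, an epithelial keratin with the lowest p of the list, was at 31.3 and 30.7 FPKM with doxycycline and 62.3 and 50.1 FPKM in the controls (limma adjusted p = 0.148). It shares 525 of its 3218 exonic bases with KRT8 on the minus strand, and has 67 annotated pseudogenes that can take its reads. The renal epithelial marker PAX8 was at 49.4 and 38.5 FPKM with doxycycline and 48.6 and 53.9 FPKM in the controls, while CA9 and NDUFA4L2, usual markers of clear cell carcinoma, did not exceed 0.0899 FPKM in any library. The 5 leukocyte, 4 endothelial and 4 fibroblast markers looked up were under 1 FPKM in every library. With bulk RNA, fewer cells that express a gene and less RNA of it per cell cannot be told apart.

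No member of the family passed the test. Of the 10 members, 0 had a limma adjusted p under 0.05, and 0 had an unadjusted p under 0.05. Over all 12029 genes, 0% had an adjusted p under 0.05, while 6.47% were higher and 11.9% lower at an unadjusted p under 0.05, with a lowest adjusted p of 0.0573. On recovered reads, limma-voom also called 0 of the 10 members. The median log2 difference of the members was 0.032, against -0.026 over all genes kept. Each such difference is the doxycycline mean less the control mean of log2(FPKM + 1), a scale that shrinks the change of weakly expressed genes. The design has 2 libraries against 2, for which the smallest exact two-sided permutation p of a single value is 0.333.

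The 2 groups did not overlap for 3 members. BCL2 was above both controls in each doxycycline library, as were 24.3% of all genes kept. BID and BAD were below both controls, as were 28.9% of all genes. Without overlap in either direction were 53.2% of all genes, so 3 of 10 members is below the background share.

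**Figure D1:**
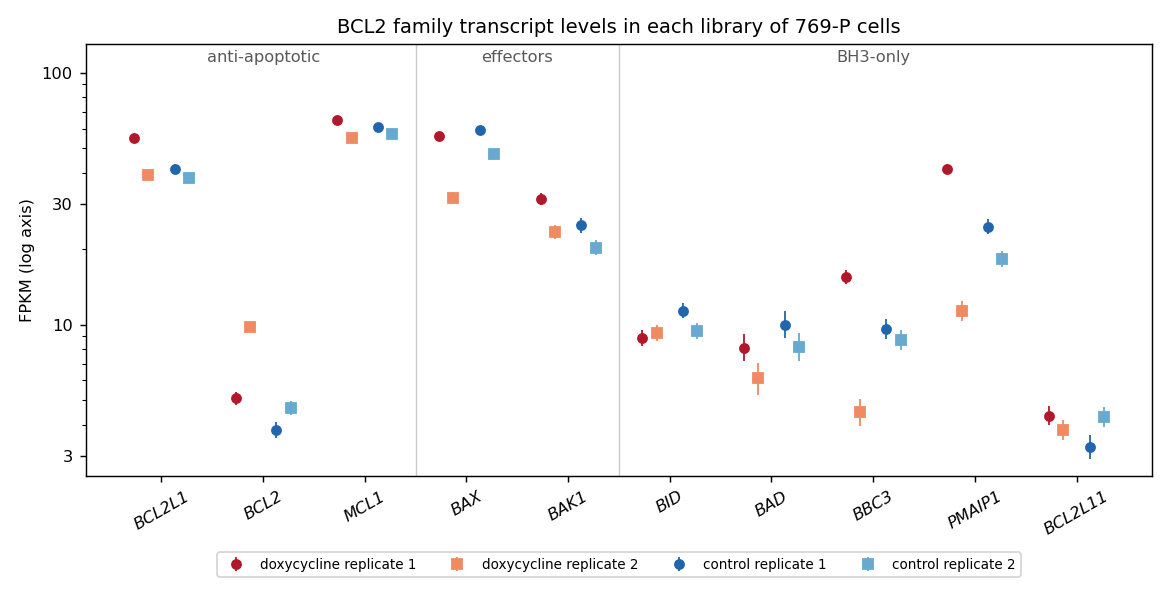
FPKM (log axis) of each member in each of the 4 libraries, with members grouped by role and doxycycline libraries to the left of the controls; vertical bars are exact 95% Poisson intervals on the recovered reads and cover counting error only. BCL2L1, MCL1 and BAX stood at 31.9 FPKM or more in every library, BCL2 was highest in doxycycline replicate 2 at 9.81 FPKM, and the doxycycline libraries of BBC3 and PMAIP1 lay on either side of the controls.

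Among the anti-apoptotic genes, MCL1 and BCL2L1 were abundant in all libraries and BCL2 was low but higher in both doxycycline libraries. MCL1 (ENSG00000143384, GRCh38 chromosome 1, 150574551 to 150579738, minus strand) encodes a short-lived protein that restrains BAK and BAX. It stood at 65.0 and 54.8 FPKM with doxycycline and at 61.1 and 57.1 FPKM in the controls. The mean was 59.9 ± 7.24 FPKM with doxycycline and 59.1 ± 2.80 FPKM in the controls (SD, n = 2 each), and the log2 difference of 0.016 had a 95% interval of -0.52 to 0.55 (limma adjusted p = 0.976). The doxycycline libraries thus lay on either side of both controls, and the group means differed by less than either group's SD. The counting interval of doxycycline replicate 2, 53.2 to 56.5 FPKM, overlaps that of the nearer control, 55.4 to 58.8 FPKM.

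BCL2L1 (ENSG00000171552, chromosome 20, 31664452 to 31723989, minus strand) encodes BCL-XL, which holds BAX, BAK and several BH3-only proteins inactive. It stood at 55.3 and 39.4 FPKM with doxycycline and at 41.6 and 38.2 FPKM in the controls. Doxycycline replicate 1 was the highest of the 4, and replicate 2 lay between the controls. The difference on the log2 scale was 0.22 (SE 0.24, 95% interval -0.38 to 0.82, limma adjusted p = 0.650). Of its 3314 exonic bases, 1424 are shared with ABALON, an antisense gene on the plus strand. ABALON was at 2.80 and 2.27 FPKM with doxycycline and 1.56 and 2.44 FPKM in the controls, and with strandedness not given in the sources used here, reads of the shared bases cannot be assigned to a strand.

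BCL2 (ENSG00000171791, chromosome 18, 63123346 to 63320128, minus strand), the founding member of the family, encodes an anti-apoptotic protein of the mitochondrial and endoplasmic reticulum membranes. It stood at 5.09 and 9.81 FPKM with doxycycline and at 3.81 and 4.68 FPKM in the controls, on 1125 and 2114 reads with doxycycline and 711 and 958 reads in the controls. Both doxycycline libraries lay above both controls, and replicate 1 was at 0.518 times the level of replicate 2. The mean was 7.45 ± 3.34 FPKM with doxycycline and 4.24 ± 0.61 FPKM in the controls (SD, n = 2 each), a ratio of 1.76, the largest of the 10 members. The log2 difference was 0.63 (SE 0.30, 95% interval -0.10 to 1.37) and did not pass the test (limma adjusted p = 0.321). With 1 doxycycline library set against the 2 controls, it was 1.05 without doxycycline replicate 1 and 0.22 without replicate 2. Even at its highest, BCL2 stood at 9.81 FPKM beside 39.4 FPKM of BCL2L1 and 54.8 FPKM of MCL1 in the same library.

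The effectors differed from each other in their pattern. BAX (ENSG00000087088, chromosome 19, 48954815 to 48961798, plus strand), which moves from the cytosol to mitochondria when activated, stood at 56.0 and 31.9 FPKM with doxycycline and at 59.2 and 47.3 FPKM in the controls. Doxycycline replicate 1 lay between the controls and replicate 2 lay below both. The log2 difference was -0.32 (SE 0.32, 95% interval -1.09 to 0.46, limma adjusted p = 0.614). With 1 doxycycline library set against the 2 controls, it was -0.71 without doxycycline replicate 1 and 0.079 without replicate 2.

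BAK1 (ENSG00000030110, chromosome 6, 33572547 to 33580293, minus strand), whose product resides in the outer mitochondrial membrane, stood at 31.6 and 23.3 FPKM with doxycycline and at 24.8 and 20.2 FPKM in the controls. Doxycycline replicate 1 was the highest and replicate 2 lay between the controls. On the log2 scale the groups differed by 0.27 (SE 0.24, 95% interval -0.32 to 0.85, limma adjusted p = 0.575). Its 2 annotated pseudogenes reached at most 1.00 FPKM, and reads of near-identical sequence can be split between them and BAK1.

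The ratio of the effectors within a library does not depend on how libraries were scaled. BAX over BAK1 was 1.77 and 1.37 with doxycycline and 2.39 and 2.34 in the controls. Both doxycycline values lay below both controls, and the gap between the groups was larger than the gap within either. This ratio was chosen after values were seen and has no test.

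**Figure D2:**
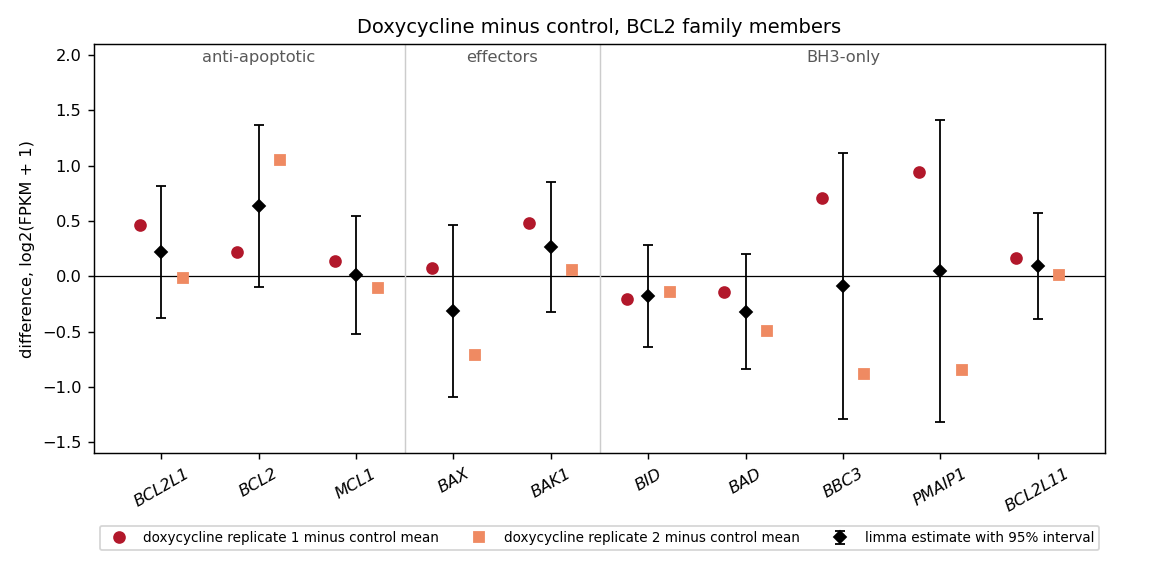
Difference between doxycycline and control on the log2(FPKM + 1) scale for each member, as the limma estimate with its 95% interval (diamonds) and as each doxycycline library minus the control mean (circle, replicate 1; square, replicate 2). All 10 intervals include 0, and the points of the 2 doxycycline libraries lie farthest apart for PMAIP1 and BBC3.

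Of the BH3-only genes, BID, BAD and BCL2L11 parted less between libraries than PMAIP1 and BBC3. BID (ENSG00000015475, chromosome 22, 17734138 to 17774770, minus strand), which carries the death receptor signal to mitochondria once cut by caspase-8, stood at 8.84 and 9.26 FPKM with doxycycline and at 11.3 and 9.44 FPKM in the controls. The doxycycline libraries lay below both controls, but the counting interval of doxycycline replicate 2, 8.61 to 9.95 FPKM, overlaps that of the nearer control, 8.77 to 10.1 FPKM. The groups differed by -0.18 on the log2 scale (95% interval -0.63 to 0.28, limma adjusted p = 0.637).

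BAD (ENSG00000002330, chromosome 11, 64269830 to 64284704, minus strand), which neutralises BCL-XL and BCL-2 unless survival kinases phosphorylate it, stood at 8.10 and 6.11 FPKM with doxycycline and at 10.0 and 8.14 FPKM in the controls. The doxycycline libraries lay below both controls, but replicate 1 by less than its counting error. The log2 difference was -0.32 (95% interval -0.84 to 0.20, limma adjusted p = 0.459). Of its 1708 exonic bases, 404 are shared with GPR137 on the plus strand, which stood at 10.3 and 7.37 FPKM with doxycycline and 8.71 and 8.25 FPKM in the controls. BAD over BCL2L1, a ratio of 2 genes whose proteins bind each other, was 0.147 and 0.155 with doxycycline and 0.240 and 0.213 in the controls, again chosen after values were seen and without a test.

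BCL2L11 (ENSG00000153094, chromosome 2, 111119378 to 111168447, plus strand) encodes BIM, a broad binder of anti-apoptotic proteins. It stood at 4.35 and 3.81 FPKM with doxycycline and at 3.27 and 4.30 FPKM in the controls. The groups overlapped, and the controls were farther apart than the doxycycline libraries. The log2 difference of 0.092 did not pass (95% interval -0.39 to 0.57, limma adjusted p = 0.829). It shares 727 of its 6658 exonic bases with MIR4435-2HG on the minus strand, which was at 0.967 and 1.18 FPKM with doxycycline and 1.49 and 1.46 FPKM in the controls.

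PMAIP1 and BBC3 parted between the doxycycline libraries far more than any other member. PMAIP1 (ENSG00000141682, chromosome 18, 59899948 to 59904306, plus strand) encodes NOXA, which binds MCL-1, and BBC3 (ENSG00000105327, chromosome 19, 47220822 to 47232766, minus strand) encodes PUMA, which binds all anti-apoptotic members. Both are known to be induced by the stress factors ATF4 and CHOP. The stretches before their RefSeq start sites are shown because both genes stood in the same order across the libraries, as described next; bases that lie in an annotated exon were left out. They come from the RefSeq promoter table (GRCh38.p14) and are written 5′ to 3′ on the strand of the gene. PMAIP1 is chr18:59899746-59899947, plus strand, and its capitals mark a cAMP response element core (TGACGT) on the other strand. BBC3 is chr19:47232767-47232917, minus strand, and its capitals mark an AP-1 motif (TGANTCA).
PMAIP1: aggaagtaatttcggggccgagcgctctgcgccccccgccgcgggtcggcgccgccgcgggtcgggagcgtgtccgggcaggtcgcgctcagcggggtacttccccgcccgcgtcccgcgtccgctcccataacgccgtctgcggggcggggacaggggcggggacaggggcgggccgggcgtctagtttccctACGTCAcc
BBC3: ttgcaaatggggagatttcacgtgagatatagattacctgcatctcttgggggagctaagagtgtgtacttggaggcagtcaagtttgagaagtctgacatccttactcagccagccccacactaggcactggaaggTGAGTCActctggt

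Given here are 3 of the motifs searched on both strands in the 300-base promoter windows (250 bases before and 50 after the start) of the 9 members with an entry, 15 windows in all; MCL1 had none. The cAMP response element core was found in PMAIP1 and at 1 site of BAD, which lies in its 2 overlapping windows, against 7.98% of all 35116 windows. The AP-1 motif was found in BBC3 alone, against 7.71% of windows. The CHOP-ATF composite (TGATGNAAN) was found in no window of the members, against 3.61% of all. None of these motifs overlaps another in the members. The matches are a description of the letters in these windows.

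PMAIP1 stood at 41.5 and 11.4 FPKM with doxycycline and at 24.5 and 18.3 FPKM in the controls. Doxycycline replicate 1 was above both controls and replicate 2 below both, a 3.65-fold gap, against 1.34-fold between the controls. The counting intervals, 39.5 to 43.5 FPKM and 10.4 to 12.4 FPKM in the doxycycline libraries, exclude both controls. The log2 difference over all libraries was 0.048 (SE 0.56, 95% interval -1.32 to 1.42, limma adjusted p = 0.971).

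BBC3 stood at 15.5 and 4.50 FPKM with doxycycline and at 9.59 and 8.67 FPKM in the controls. Again doxycycline replicate 1 was above both controls and replicate 2 below both, with a 3.44-fold gap between the doxycycline libraries against 1.11-fold between the controls. Over all libraries the log2 difference was -0.088 (SE 0.49, 95% interval -1.29 to 1.11, limma adjusted p = 0.940). PMAIP1 over BBC3 was 2.68 and 2.53 with doxycycline and 2.55 and 2.11 in the controls, so the genes kept a similar proportion while each parted more than 3-fold.

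These 2 were the only members that differed by at least 1 on the log2 scale between the doxycycline libraries, and both were higher in replicate 1. Of all genes kept, 6.77% differed that much in either direction and 4% were higher in replicate 1. Between the controls no member did, against 1.12% of genes. MCL1 was the third member with doxycycline replicate 1 above both controls and replicate 2 below both, an order held by 8.71% of genes, and no member had the opposite order, held by 9.22%. The gap of MCL1 between the doxycycline libraries was only 1.19-fold, and its replicate 2 overlaps the nearer control in counting error. PMAIP1 and BBC3 differed from the controls in opposite directions in the 2 doxycycline libraries. Without doxycycline replicate 2, BBC3 had a log2 difference of 0.70 (limma adjusted p = 0.0207) and PMAIP1 of 0.94 (limma adjusted p = 0.0149), and no other member passed. Of all genes, 13.8% were then called, 5.14% higher and 8.63% lower. Without doxycycline replicate 1, they had -0.88 (limma adjusted p = 0.00193) and -0.84 (limma adjusted p = 0.00970), and BAX was called lower and BCL2 higher as well. Of all genes, 33.7% were then called, 13.4% higher and 20.3% lower. Without either control, 0 members and 0% of genes were called. In these fits the lone doxycycline library is assumed to vary like the 2 controls. The share of mitochondrially encoded reads parted the same libraries (7.44% and 14.6% with doxycycline), and its part in these results, and in those of BAX and BCL2, was not tested.

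**Figure D3:**
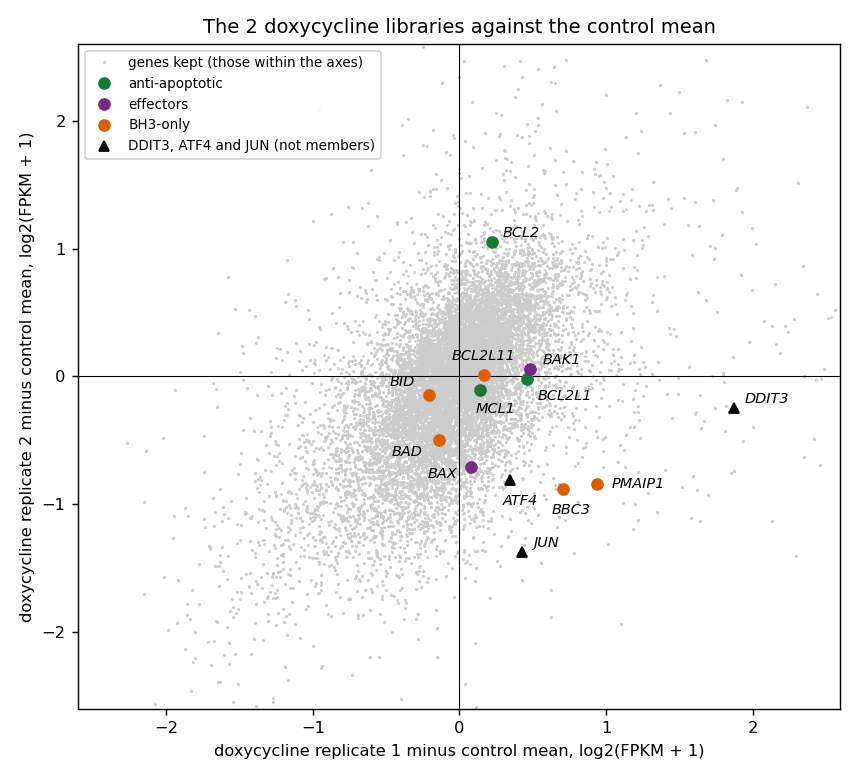
Each gene kept, as doxycycline replicate 1 minus the control mean (horizontal axis) against doxycycline replicate 2 minus the control mean (vertical axis), both in log2(FPKM + 1), with the members coloured by role and DDIT3, ATF4 and JUN as triangles. PMAIP1 and BBC3 lie to the lower right, at 0.94 and 0.70 on the horizontal axis and -0.84 and -0.88 on the vertical one, while BCL2 lies at 0.22 and 1.05.

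Summed over the 5 BH3-only genes, the level was 78.2 and 35.0 FPKM with doxycycline and 58.7 and 48.8 FPKM in the controls. The 3 anti-apoptotic genes summed to 125 and 104 FPKM with doxycycline and 107 and 100 FPKM in the controls, and the effectors to 87.6 and 55.2 FPKM with doxycycline and 84.0 and 67.5 FPKM in the controls. BH3-only genes therefore made up 26.9% and 18.0% of the family's summed FPKM with doxycycline, and 23.6% and 22.6% in the controls. Anti-apoptotic genes made up 43.1% and 53.5% with doxycycline, and 42.7% and 46.2% in the controls. Doxycycline replicate 2 had the highest anti-apoptotic and the lowest BH3-only share of the 4 libraries, while replicate 1 had the highest BH3-only share. Of the 5 BH3-only genes, only PMAIP1 and BBC3 were highest in replicate 1 and lowest in replicate 2, so the BH3-only shares largely restate those genes. The anti-apoptotic share depends on the effectors as well. In replicate 2, BAX was at 31.9 FPKM, below the controls at 59.2 and 47.3 FPKM, while BAK1 lay between the controls. The anti-apoptotic sum of replicate 2 lay between the controls, while its BH3-only and effector sums were the lowest of the 4 libraries.

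The ratios of NOXA and PUMA transcripts to MCL1 parted with the BH3-only gene. PMAIP1 over MCL1 was 0.637 and 0.207 with doxycycline and 0.401 and 0.320 in the controls. BBC3 over MCL1 was 0.238 and 0.0821 with doxycycline and 0.157 and 0.152 in the controls. For both ratios the doxycycline libraries were the highest and the lowest of the 4. BAX over BCL2 was 11.0 and 3.26 with doxycycline and 15.5 and 10.1 in the controls, where replicate 1 lay between the controls and replicate 2 below both. None of these ratios was planned or has a test.

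**Figure D4:**
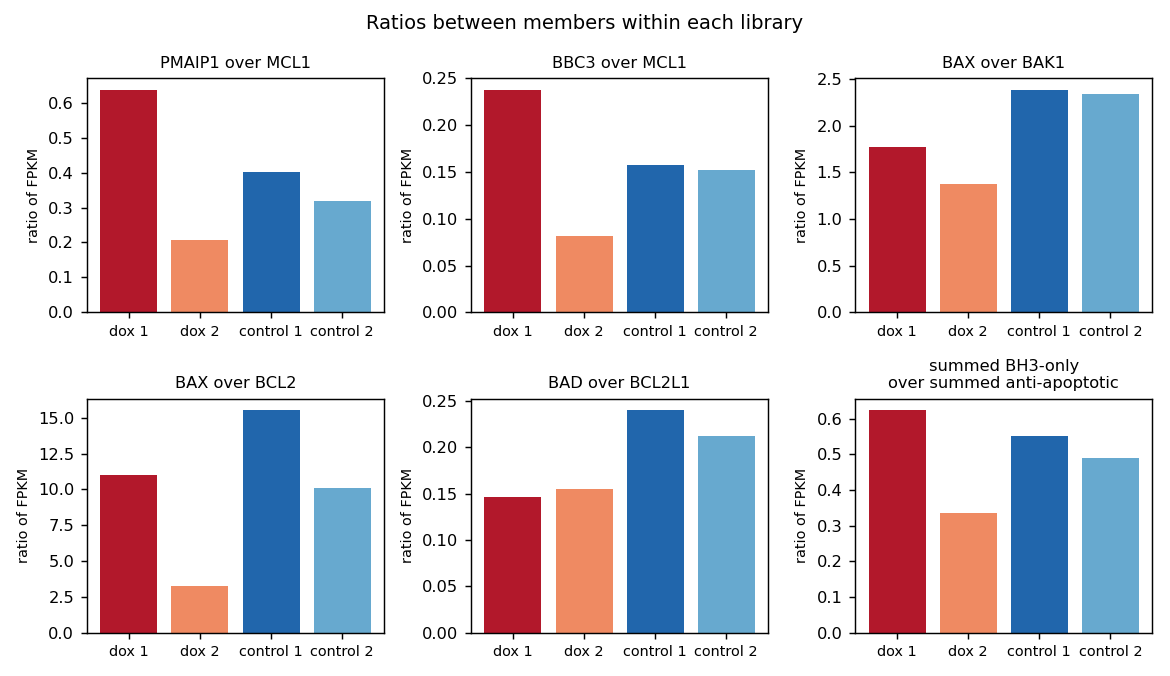
Ratios of FPKM between members within each library (bars from 0; dox 1 and dox 2 are the doxycycline replicates), which do not depend on how libraries were scaled. BAX over BAK1 and BAD over BCL2L1 were below both controls in each doxycycline library. Both were chosen after values were seen, and none of the ratios shown was planned or has a test. Of single genes kept, 53.2% had groups without overlap, and that share over ratios was not computed. PMAIP1 over MCL1, BBC3 over MCL1 and the summed BH3-only over the summed anti-apoptotic genes were highest in doxycycline replicate 1 and lowest in doxycycline replicate 2.

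By mean FPKM over the 4 libraries the members ran in the order MCL1 (59.5 FPKM), BAX (48.6), BCL2L1 (43.6), BAK1 (24.97), PMAIP1 (23.9), BID (9.72), BBC3 (9.56), BAD (8.09), BCL2 (5.85) and BCL2L11 (3.93). MCL1 had a higher mean than 95.2% of the genes kept and BCL2L11 than 35.0%. The ranges over libraries did not overlap between BCL2L1 and BAK1, or between PMAIP1 and BID, where the margin was 11.4 FPKM against 11.3 FPKM. The other 7 pairs of neighbours overlapped, although MCL1 exceeded BAX, and BCL2 exceeded BCL2L11, in each of the 4 libraries.

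Of 12 further BCL2 family genes, 6 were kept and 0 passed the test in either direction, with 1 higher and 2 lower at an unadjusted p under 0.05. Of all genes kept, 6.47% were higher and 11.9% lower at that threshold. BCL2L12, BNIP3 and BCL2L13 are described because they had the lowest p of this list. The median log2 difference of the 6 was -0.15. BCL2L12, a relative whose place in apoptosis is less settled, stood at 9.10 and 4.51 FPKM with doxycycline and at 18.9 and 17.2 FPKM in the controls (log2 difference -1.35, limma adjusted p = 0.116). The doxycycline values were the lowest of the 4. It shares 734 of its 2216 exonic bases with IRF3, an interferon regulator on the minus strand, which was at 18.9 and 11.1 FPKM with doxycycline and 21.6 and 16.8 FPKM in the controls.

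BNIP3, a mitophagy receptor with a BH3-like motif, stood at 6.24 and 7.52 FPKM with doxycycline and at 11.9 and 10.8 FPKM in the controls (log2 difference -0.65, limma adjusted p = 0.174). BCL2L13, also a mitophagy receptor, stood at 21.2 and 19.3 FPKM with doxycycline and at 12.9 and 13.3 FPKM in the controls (log2 difference 0.59, limma adjusted p = 0.191). In both, the spread within each group was small beside the gap between groups; BNIP3 has 39 annotated pseudogenes that can take its reads. Each of these 3 genes passed in the same direction with either doxycycline library left out, with adjusted p from limma between 2.12e-05 and 0.0485, in fits that called 33.7% and 13.8% of all genes, and none passed without either control. BCL2A1 and BCL2L10, 2 further anti-apoptotic genes, were listed at 0 in every library.

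Of 12 names in the list of cytochrome c release and apoptosome genes, 11 genes were kept and 0 passed in either direction, with a median log2 difference of -0.046. CASP9, the initiator caspase of the apoptosome, stood at 1.64 and 1.38 FPKM with doxycycline and at 0.742 and 0.817 FPKM in the controls, on 162 and 133 reads with doxycycline and 62 and 75 reads in the controls (log2 difference 0.49, limma adjusted p = 0.295). AIFM1, a mitochondrial flavoprotein, stood at 36.1 and 61.5 FPKM with doxycycline and 36.9 and 34.8 FPKM in the controls (limma adjusted p = 0.512). ENDOG, a mitochondrial nuclease, stood at 21.7 and 8.06 FPKM with doxycycline and 21.6 and 16.4 FPKM in the controls (limma adjusted p = 0.590). It shares 460 of its 1172 exonic bases with SPOUT1 on the minus strand. SPOUT1 was at 6.07 and 3.59 FPKM with doxycycline and 7.38 and 6.38 FPKM in the controls. Of CASP9, AIFM1 and ENDOG, CASP9 alone had doxycycline libraries on one side of the controls, as had 53.2% of all genes kept. Both its controls were under 1 FPKM, so CASP9 passed the filter only through the doxycycline libraries, where it was higher. Its separation is therefore partly set by the filter, and without doxycycline replicate 1 it was not tested. DIABLO is listed under 2 overlapping identifiers, neither of which was kept, and its reads can be lost or split between them.

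Of 15 names in the list for turnover and partners of BCL2 family proteins, 12 matched, 11 were kept and 0 passed, with a median of 0.12. TPT1, a partner of MCL-1, stood at 151 and 181 FPKM with doxycycline and at 124 and 107 FPKM in the controls (log2 difference 0.51, limma adjusted p = 0.317), and it has 14 annotated pseudogenes that can take its reads. DYNLL1, a dynein light chain that binds BIM, stood at 60.0 and 52.1 FPKM with doxycycline and 80.1 and 61.9 FPKM in the controls (limma adjusted p = 0.494). BTRC, a ubiquitin ligase subunit, stood at 4.55 and 6.09 FPKM with doxycycline and 4.21 and 4.42 FPKM in the controls (limma adjusted p = 0.539).

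Of 12 transcription factors known to regulate these genes, 11 were kept and 0 passed in either direction, with a median log2 difference of 0.081. E2F1, a cell cycle factor, stood at 8.18 and 4.23 FPKM with doxycycline and at 20.5 and 17.7 FPKM in the controls (log2 difference -1.53, limma adjusted p = 0.0819). NFKB1, an NF-kB subunit, stood at 5.42 and 7.19 FPKM with doxycycline and at 14.4 and 14.3 FPKM in the controls (log2 difference -1.08, limma adjusted p = 0.0766). Each was lower in both doxycycline libraries, and each passed when testing was limited to genes averaging 5 FPKM or more (limma adjusted p = 0.0343 for E2F1 and 0.0377 for NFKB1), a fit that called 261 of 6932 genes. With no filter on FPKM the limma adjusted p was 0.340 for E2F1 and 0.304 for NFKB1. With either doxycycline library left out each passed, in fits that called 33.7% and 13.8% of all genes, and without either control neither did. STAT3 stood at 15.7 and 20.2 FPKM with doxycycline and 12.5 and 14.1 FPKM in the controls (limma adjusted p = 0.372).

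Of these 11 factors, 4 had doxycycline replicate 1 above both controls and replicate 2 below both, the order of PMAIP1 and BBC3, against 8.71% of all genes, and 1 (FOXO1) had the opposite order, against 9.22%. The 4 were DDIT3, ATF4, JUN and RELA, and the first 3, which respond to stress, are described here after their values were seen. DDIT3, which encodes CHOP, stood at 39.2 and 8.23 FPKM with doxycycline and at 9.21 and 10.8 FPKM in the controls. The counting interval of its doxycycline replicate 2, 7.12 to 9.46 FPKM, overlaps that of the nearer control, 7.95 to 10.6 FPKM. ATF4 stood at 141 and 62.8 FPKM with doxycycline and at 125 and 97.7 FPKM in the controls. JUN, an AP-1 subunit, stood at 64.3 and 17.7 FPKM with doxycycline and at 53.9 and 41.9 FPKM in the controls. Less the control mean on the log2 scale, doxycycline replicates 1 and 2 were at 1.87 and -0.25 for DDIT3. They were at 0.35 and -0.81 for ATF4 and at 0.43 and -1.38 for JUN. The departures were thus less even than those of PMAIP1 (0.94 and -0.84) and BBC3 (0.70 and -0.88). DDIT3 differed 4.77-fold between the doxycycline libraries, JUN 3.64-fold and ATF4 2.24-fold, and 0 of the 3 passed over all libraries (limma adjusted p = 0.525, 0.679 and 0.787). DDIT3 shares 355 of its 1307 exonic bases with MARS on the plus strand, which stood at 34.0 and 19.5 FPKM with doxycycline and 27.8 and 25.5 FPKM in the controls.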

How the data were processed

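The deposited values are FPKM, per the file headers, in 1 table a library. The submitters' processing notes list featureCounts 1.5.0-p3, HISAT2 2.0.5 and limma without saying what each did; genome build, strandedness and filters are not given in the sources used here. The sizes implied by the scaling were 97.2% to 108% of the total reads, so a normalization factor was part of it. All 58735 identifiers had the coordinates of GENCODE release 29 (GRCh38), used for annotation. In each library, FPKM times gene length was a whole multiple of the worth of 1 read for 100.0% of the values checked (tolerance 0.02 reads), which gave reads and depth. Genes without reads and those with the most reads were not part of that check. Intervals on reads are exact Poisson intervals and cover counting error only.

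Genes averaging 1 FPKM or more were tested with limma-trend (limma 3.58.1, R 4.3.3) on log2(FPKM + 1), two-sided, with 2 residual degrees of freedom and Benjamini-Hochberg adjustment over all 12029 genes, at a threshold of 0.05. The fit was tested on simulated data in which all libraries had the same spread, so that check does not bear on the gap between the doxycycline libraries. Tables were made with scipy 1.17.1, numpy 2.4.6 and pandas 2.3.3 under Python 3.11.15. Members and lists were chosen with earlier results of these data known. Named outside the members are USP35, up to 3 genes per list with the lowest p, genes that overlap a member or another named gene, and, chosen after their values were seen, DDIT3, ATF4, JUN, RELA, FOXO1, DIABLO, BCL2A1, BCL2L10, PAX8, KRT8, CA9 and NDUFA4L2. Alternatives were other pseudocounts, filters and scalings, a replicate block, limma-voom on recovered reads, and each library left out. Of the transcription factor list 1 gene, and of the motifs 1, are not reported here.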

Additional observations from a re-analysis of the deposited data

How the results depend on the processing

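The count of members past the threshold stayed at 0 of 10 under each alternative that kept all 4 libraries (pseudocount 0.1, no filter, only genes averaging 5 FPKM or more, quantile normalization, leaving out mitochondrially encoded genes, the replicate block and limma-voom), except that BCL2L11 was not tested at 5 FPKM. It ranged from 0 to 4 with each library left out (4 without doxycycline replicate 1, 2 without doxycycline replicate 2, 0 without either control). The count over all genes, 0 over all libraries, was 261 (42 higher, 219 lower) among genes averaging 5 FPKM or more, and with the replicate block it was 784 (202 higher, 582 lower). It ranged from 0 to 4038 with each library left out. Replicate numbers come from the titles and nothing says that they pair libraries; deviations of same-numbered libraries correlated at 0.207 over 12029 genes, and with the replicate block the lowest adjusted p of a member was 0.130, for BCL2. Of the other genes named, BCL2L12 (limma adjusted p = 0.00984), E2F1 (0.00518) and NFKB1 (0.0175) passed with the block and not without it.

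Signs of members reversed only where a library was left out. With each library left out in turn, the log2 difference ranged from -0.018 to 0.46 for BCL2L1, -0.11 to 0.14 for MCL1, -0.71 to 0.079 for BAX, -0.88 to 0.70 for BBC3, -0.84 to 0.94 for PMAIP1 and -0.065 to 0.25 for BCL2L11. For these members other than BCL2L11 the ends of the range came without doxycycline replicate 1 (lowest) and without doxycycline replicate 2 (highest); MCL1 and PMAIP1 also reversed without control replicate 2 (-0.031 and -0.15), and BCL2L11 without control replicate 1. Among other genes named, the range was -1.13 to 0.20 for ENDOG, -0.25 to 1.87 for DDIT3, -0.81 to 0.35 for ATF4 and -1.38 to 0.43 for JUN. The cause was not tested. The planned quasi-likelihood test with TMM was not run, because the files hold FPKM and not counts. Members rested on 191 to 5345 reads a library.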
